A study of Mus musculus with 10 samples.

Results

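NMDA receptors are glutamate-gated cation channels, and their subunits are encoded by 7 genes in the mouse: Grin1, Grin2a, Grin2b, Grin2c, Grin2d, Grin3a and Grin3b. All 7 were found in the deposited table by their symbols, each on 1 row, among 23259 gene symbols in all. Their levels were read in 10 RNA-seq libraries of sorted retinal ganglion cells, the neurons that send the output of the retina to the brain. The mice were C57BL/6 at postnatal day 6. All of them carried the Hb9-GFP reporter, in which a green fluorescent protein marks a subset of ganglion cells known to be direction-selective, and the GFP-labeled cells were collected by flow cytometry. In 5 libraries the mice were otherwise wild-type, and in the other 5 they were Satb1-/-, a homozygous knockout of the gene for the chromatin organizer Satb1. The 5 samples of a genotype came from different litters, each from about 1000 cells. Which part of Satb1 is removed in these mice was not given in the sources used here.

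A functional NMDA receptor is a tetramer that needs the GluN1 subunit, encoded by Grin1, which binds the co-agonist glycine or D-serine. GluN1 is joined by GluN2 subunits (Grin2a to Grin2d), which bind glutamate and set the kinetics and the magnesium block, or by GluN3 subunits (Grin3a and Grin3b), which bind glycine and lower calcium permeability. In much of the forebrain GluN2B is abundant early and GluN2A gains ground as synapses mature. On retinal ganglion cells, NMDA receptors carry part of the glutamate input from bipolar cells.

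For 4 of the 7 genes RefSeq (build GRCm38.p6) gives a promoter window of 250 bases before to 50 bases after the transcription start. The windows of Grin1, Grin2c and Grin3b are shown because these genes stood at opposite ends of the order of levels described below. Grin1 lies on chromosome 2, minus strand, with its window at chr2:25319138-25319437. Grin2c lies on chromosome 11, minus strand, with its window at chr11:115267194-115267493, and Grin3b on chromosome 10, plus strand, with its window at chr10:79970474-79970773. Capitals mark matches on either strand to GGGCGG (the GC box, which Sp1-type factors bind) or to TATAAA (the TATA box). The sequences run 5′ to 3′ on the strand of the gene.
Grin1: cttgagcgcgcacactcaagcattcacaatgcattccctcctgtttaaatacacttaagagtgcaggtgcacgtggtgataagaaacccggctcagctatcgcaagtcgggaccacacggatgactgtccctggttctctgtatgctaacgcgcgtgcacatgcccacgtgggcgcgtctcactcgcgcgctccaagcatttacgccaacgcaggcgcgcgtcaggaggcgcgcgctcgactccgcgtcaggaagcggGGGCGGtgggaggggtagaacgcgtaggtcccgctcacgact
Grin2c: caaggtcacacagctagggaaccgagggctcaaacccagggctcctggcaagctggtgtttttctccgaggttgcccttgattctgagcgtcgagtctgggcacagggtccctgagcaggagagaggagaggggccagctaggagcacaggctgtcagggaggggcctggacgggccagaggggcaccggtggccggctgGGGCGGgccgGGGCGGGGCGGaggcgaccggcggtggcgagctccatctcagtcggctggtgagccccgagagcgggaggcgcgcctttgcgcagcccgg
Grin3b: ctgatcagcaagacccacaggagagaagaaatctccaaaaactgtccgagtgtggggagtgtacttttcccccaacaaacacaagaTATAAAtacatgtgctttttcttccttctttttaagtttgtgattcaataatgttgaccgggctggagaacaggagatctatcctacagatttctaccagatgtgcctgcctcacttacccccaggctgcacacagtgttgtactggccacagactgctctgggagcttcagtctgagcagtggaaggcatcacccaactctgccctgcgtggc
The Grin1 window held 33 CpG dinucleotides, more than 91.4% of all 32851 promoter windows in the table, and 1 GC box. The Grin2c window held 22 CpG dinucleotides and 3 GC boxes. The Grin3b window held 3 CpG dinucleotides, no GC box and 1 TATAAA match. Over all windows the median was 7 CpG dinucleotides, 35.7% held a GC box and 13.6% held TATAAA. GC boxes were thus present in the window of Grin1, the most abundant subunit gene, and in that of Grin2c. Grin2c was last by the wild-type mean of log2(TPM + 1), but did not differ from Grin3b beyond the spread (4 of 10 libraries in that order).

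Transcript levels were given by the authors as log10(TPM + 1) and were turned back into TPM, a level scaled for transcript length and for the total of the library. The ganglion cell label was checked against 13 marker genes. All 13 had transcripts in every library except for Pou4f3, listed at 0 in knockout 5. Their summed levels were 16095 to 31925 TPM (wild-type) and 14685 to 102390 TPM (knockout), with the neurofilament gene Nefl alone at 94380 TPM in knockout 3. Among markers of other cells, Gad1, which defines GABA-releasing amacrine cells, did not exceed 0.973 TPM in any library. Chat, which defines starburst amacrine cells, did not exceed 1.68 TPM. Other members of these marker lists were higher, with Gad2 at up to 8.83 TPM and Calb2 at up to 1583 TPM. The 9 microglia markers summed to 4.14 to 2240 TPM (wild-type) and 74.2 to 2744 TPM (knockout). The 8 Muller glia markers summed to 382 to 636 TPM and 202 to 5763 TPM, respectively, with Apoe at 5651 TPM in knockout 5. The 10 rod markers summed to 4.52 to 466 TPM and 1.26 to 462 TPM. How much RNA came from other cells was not tested. Satb1 itself ranged from 38.6 to 414 TPM among wild-type libraries and from 24.1 to 170 TPM among knockout libraries, so its whole-gene level overlapped between the genotypes. Wild-type 5, knockout 4 and knockout 5 stood apart from the other 7 libraries on the first principal component of all tested genes, with scores of 88 to 149 against at most -14.2. Knockout 5 also had the fewest gene symbols at 1 TPM or more, 10073 against 11120 to 12556 elsewhere.

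Grin1, the obligatory subunit, was by far the most abundant of the 7 transcripts in every library. Wild-type libraries 1 to 5 had 373, 197, 286, 465 and 255 TPM, and knockout libraries 1 to 5 had 169, 264, 153, 313 and 177 TPM. Wild-type 4 was highest and knockout 3 lowest, and the genotypes overlapped, although 4 of the 5 knockout libraries lay below the wild-type median. Grin1 averaged 315 ± 105 TPM for wild-type against 215 ± 69.9 TPM for knockout (SD, n = 5 each). Within each library Grin1 ranked above 95.8% to 98.8% of all gene symbols. It made up 84.7% ± 6.64 of the summed TPM of the 7 subunit genes in wild-type and 80.2% ± 10.6 in knockout (SD, n = 5 each).

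Grin2b, which encodes the GluN2 subunit typical of young neurons, was the leading GluN2 transcript in 9 of the 10 libraries. Wild-type libraries 1 to 5 had 34.5, 43.9, 31.6, 14.6 and 12.6 TPM, and knockout libraries 1 to 5 had 27.5, 18.9, 19.7, 13.1 and 7.43 TPM. Wild-type 1 to 3 were above every knockout library, whereas wild-type 4 and 5 were within the knockout range, so the genotypes overlapped. Grin2b averaged 27.4 ± 13.5 TPM for wild-type against 17.3 ± 7.54 TPM for knockout (SD, n = 5 each). The 3 libraries that stood apart had the 3 lowest Grin2b levels, 7.43 to 13.1 TPM against 14.6 to 43.9 TPM in the other 7. This held for 1 of the 5 tested subunit genes, and 21.2% of all tested genes shared it. Of the 13 ganglion cell markers, 5 were also below the other 7 libraries in all 3 of them. The glutamate transporter gene Slc17a6, for example, was at 55.2 to 96.7 TPM there and at 176 to 726 TPM elsewhere. Other markers of the same list went the other way and were above the other 7 in all 3. Thy1 was at 1397 to 2105 TPM against 705 to 1329 TPM, and Gap43 at 1380 to 2123 TPM against 672 to 1370 TPM. The ganglion cell markers thus did not move together in the 3 libraries, and what part their levels have in the Grin2b values was not tested. In bulk samples, fewer cells of a type and less RNA per cell cannot be told apart.

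Grin2a, which encodes the GluN2 subunit typical of mature synapses, was lower than Grin2b and varied more. Wild-type libraries 1 to 5 had 13.4, 6.74, 2.06, 9.19 and 3.12 TPM, and knockout libraries 1 to 5 had 6.20, 8.34, 2.48, 34.2 and 0.478 TPM. Knockout held both the highest library (4) and the lowest (5), and wild-type lay between them. Grin2a averaged 6.90 ± 4.62 TPM for wild-type against 10.3 ± 13.7 TPM for knockout (SD, n = 5 each), and 4.37 TPM for knockout without knockout 4.

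Grin2d, whose subunit gives slowly deactivating receptors and is expressed mainly early in development, stood at 3.52, 6.25, 0.386, 3.45 and 3.65 TPM across wild-type libraries 1 to 5. Knockout libraries 1 to 5 had 2.63, 0.444, 2.07, 0.195 and 2.37 TPM. Grin2d averaged 3.45 ± 2.08 TPM for wild-type against 1.54 ± 1.14 TPM for knockout (SD, n = 5 each). All 5 knockout libraries lay below the wild-type median of 3.52 TPM, but wild-type 3 was lower than 4 of them. Grin2c, whose subunit is best known from cerebellar granule cells, was listed at 0 in wild-type 3 and 4 and in knockout 1 and 5. Its highest level was 1.01 TPM among wild-type and 1.59 TPM among knockout libraries, and it reached 1 TPM in 4 of the 10 libraries. A value listed at 0 can be a failed estimate, since 8 of 1100 genes whose median was 100 TPM or more were also listed at 0 in some library.

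Of the GluN3 genes, Grin3a was clearly present and Grin3b was near 0 in most libraries. Grin3a, whose subunit is most abundant in the first postnatal weeks in many brain regions, stood at 23.2, 5.93, 21.8, 15.6 and 4.44 TPM across wild-type libraries 1 to 5. Knockout libraries 1 to 5 had 58.3, 21.1, 16.8, 7.13 and 1.11 TPM. As with Grin2a, the highest library (1) and the lowest (5) were both knockout. Grin3a averaged 14.2 ± 8.72 TPM for wild-type against 20.9 ± 22.3 TPM for knockout (SD, n = 5 each), and 11.5 TPM for knockout without knockout 1. In knockout 1 Grin3a exceeded Grin2b by 2.12 times, and it also did so in wild-type 4 (1.07 times) and knockout 2 (1.11 times).

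Grin3b, known from motor neurons, reached 7.13 TPM in a single wild-type library (1) and 10.9 TPM in a single knockout library (2). The remaining wild-type libraries did not exceed 0.738 TPM and the remaining knockout libraries did not exceed 2.14 TPM, with wild-type 3 and knockout 1 listed at 0. GENCODE M21 (GRCm38) places 1059 of the 3296 exonic bases of Grin3b within exons of Tmem259 on the opposite strand, and the use of strand in counting is not given, so reads of these genes may not be separable. Tmem259 (entered as ORF61) had 28.8 and 21.1 TPM in those libraries, within its range of 15.8 to 280 TPM. The antisense gene Grin1os shares 1307 of the 9700 exonic bases of Grin1 and was at 0.875 to 12.9 TPM (entered as E130003G02Rik), far under Grin1.

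**Figure D1:**
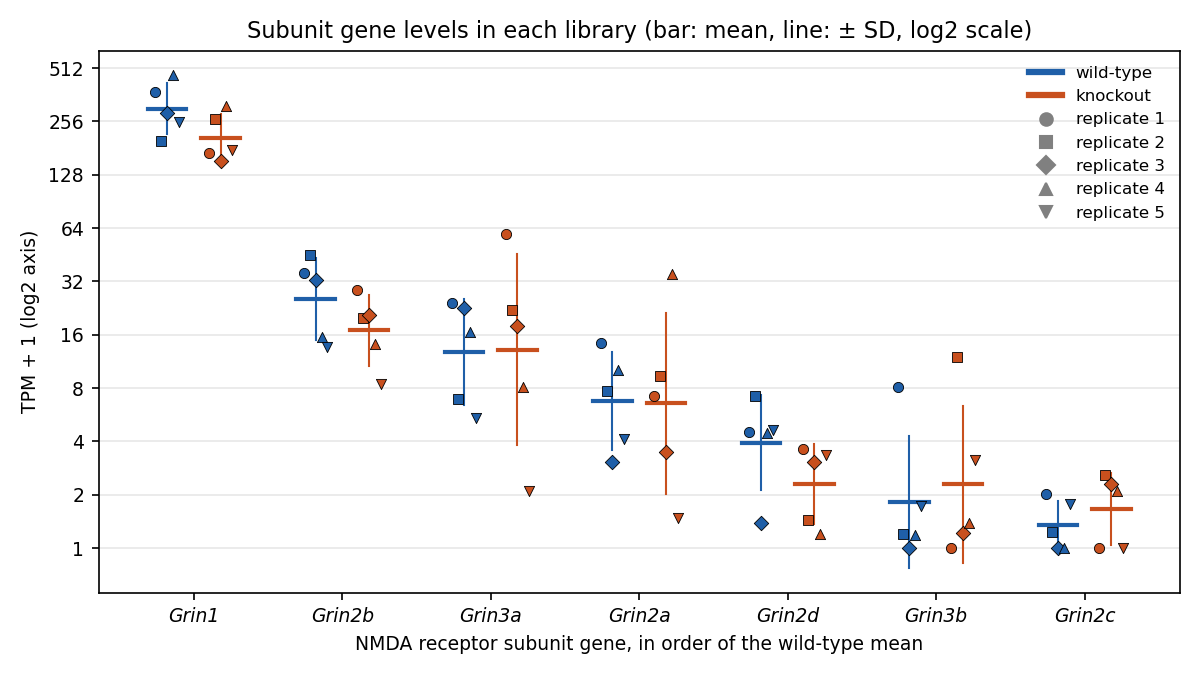
TPM + 1 on a log2 axis for the 7 subunit genes, one point per library, with the mean and SD of log2(TPM + 1) per genotype (n = 5 each). Grin1 lies above 128 in all 10 libraries and above every other gene, while the points of the genotypes overlap for all 7 genes.

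In order of the wild-type mean of log2(TPM + 1), the genes ran Grin1, Grin2b, Grin3a, Grin2a, Grin2d, Grin3b and Grin2c. The step from Grin1 to Grin2b was the only one of the 6 between neighbours that was larger than its spread: Grin1 was higher by 3.59 ± 0.91 on the log2 scale (SD over 10 libraries), and was so in 10 of 10. Grin2b exceeded Grin3a by 0.68 ± 1.09 (7 of 10 libraries), Grin3a exceeded Grin2a by 0.96 ± 1.54 (8 of 10) and Grin2a exceeded Grin2d by 1.15 ± 1.70 (8 of 10). Grin2d exceeded Grin3b by 0.56 ± 1.66 (7 of 10), and Grin3b exceeded Grin2c by 0.45 ± 1.10 (4 of 10). Neighbours below Grin1 therefore did not differ beyond their spread. Which transcript lengths went into the TPM is not given. Exons of these genes cover 3296 bases (Grin3b) to 24842 bases (Grin2b) in GENCODE M21, so levels set between genes depend on the lengths used.

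Among GluN2 transcripts, Grin2b held the largest share in both genotypes. Its share of the summed Grin2 TPM was 65.8%, 76.9%, 92.8%, 53.6% and 62.5% in wild-type 1 to 5, and 75.7%, 64.6%, 77.1%, 27.0% and 72.3% in knockout 1 to 5. Knockout 4 was the exception: there Grin2a held 70.3%. The mean share of Grin2b was 70.3% ± 15.1 in wild-type and 63.3% ± 20.9 in knockout (SD, n = 5 each). The mean without knockout 4 was 72.4%. For Grin2a the mean share was 18.5% ± 11.1 in wild-type and 26.0% ± 26.3 in knockout, where it was 15.0% without knockout 4. Grin2d held 9.92% ± 6.40 in wild-type and 8.06% ± 9.04 in knockout, where it was 4.31% without knockout 5, and Grin2c at most 5.44% in any library. The differences between the genotypes in these shares were smaller than the SD within a genotype.

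**Figure D2:**
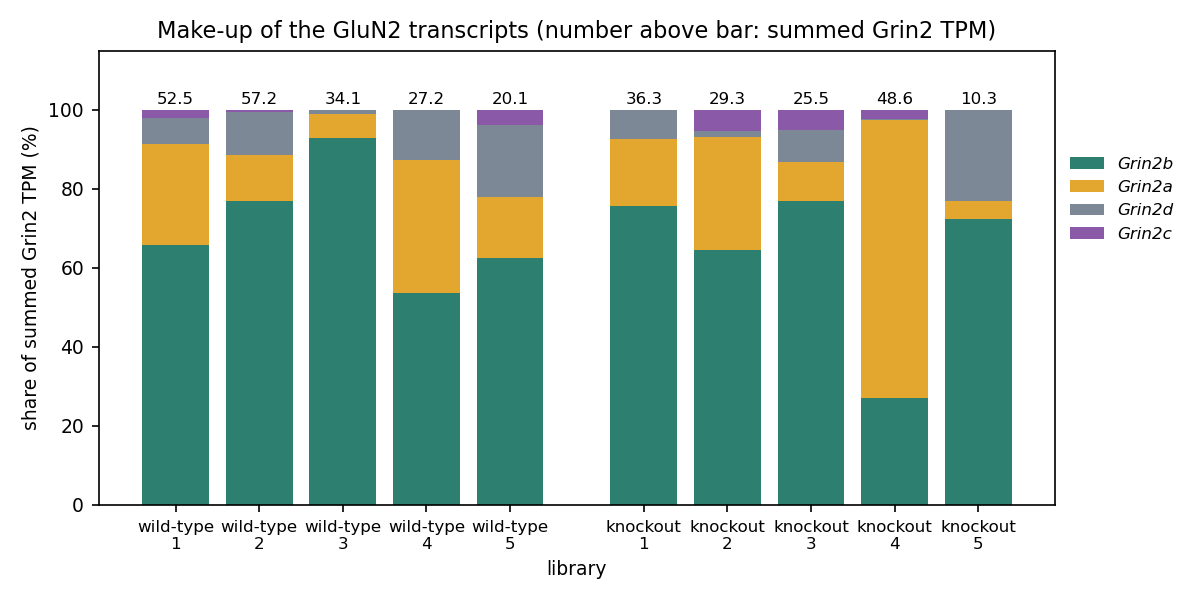
Share of each Grin2 gene in the summed Grin2 TPM (percent) for the 10 libraries, with the sum in TPM above each bar. Grin2b fills more than 50% of the bar in every library except knockout 4, where it holds 27.0% and Grin2a 70.3%.

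Grin1 exceeded all GluN2 and GluN3 transcripts together in every library. The ratio was 3.12 to 10.8 in wild-type (median 5.13) and 1.79 to 13.1 in knockout (median 4.30). It was lowest in knockout 1, which had the most Grin3a, and highest in knockout 5, which had the least Grin2a, Grin2b and Grin3a. The sum of the 7 subunit genes spanned 261 to 508 TPM among wild-type libraries and 190 to 370 TPM among knockout libraries. Transcripts of the 4 AMPA receptor genes (Gria1 to Gria4), which encode another class of glutamate-gated channel, spanned 46.0 to 456 TPM and 64.9 to 505 TPM, respectively.

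Variation between libraries differed among the subunit genes. Within a genotype, the SD of log2(TPM + 1) was 0.46 for Grin1, 0.72 for Grin2b, 0.82 for Grin2d, 1.37 for Grin2a and 1.45 for Grin3a, against a median of 1.20 over all tested genes. Among the 283 other genes within 0.5 log2 units of the mean of Grin1, 11 had a smaller SD than Grin1 (3.89%), and the median SD was 0.97. For Grin2b 6.65% of genes at a like level had a smaller SD, for Grin2d 11.6%, for Grin2a 55.5% and for Grin3a 66.2%. Grin1, Grin2b and Grin2d were thus among the steadier genes at their level, and Grin2a and Grin3a were not.

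**Figure D3:**
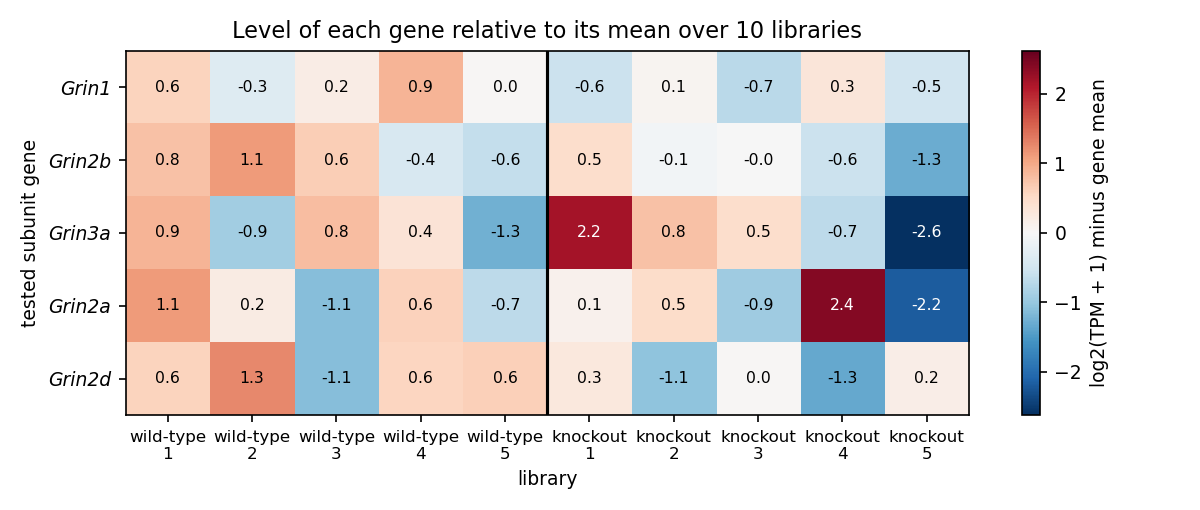
Level of each tested subunit gene in each library, as log2(TPM + 1) minus the mean of the gene over the 10 libraries; red is above and blue below that mean. Grin3a in knockout 1 and Grin2a in knockout 4 stand highest, both genes are lowest in knockout 5, and Grin1 stays within 1 log2 unit of its mean throughout.

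The genotypes were then compared for each subunit gene, to see which transcripts differ when Satb1 is missing. The 11745 genes that reached 1 TPM in 5 or more libraries were fitted together with limma, and p-values were adjusted over all of them by the Benjamini-Hochberg method. Grin1, Grin2a, Grin2b, Grin2d and Grin3a passed this filter; Grin2c and Grin3b did not and have no test. None of the 5 tested genes was called at an adjusted p under 0.05, where 0% of all tested genes (0 of 11745) were called. At an unadjusted p under 0.05 there was also none of the 5, against 389 (3.31%) of all tested genes. In each of the 5 the genotypes overlapped, whereas they did not in 0.502% of all tested genes.

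The log2 difference, knockout minus wild-type, was -0.54 for Grin1 (SE 0.51, 95% interval -1.60 to 0.52; limma adjusted p = 0.992). On the scale of TPM + 1 this is a ratio of 0.686, with an interval of 0.33 to 1.43, so the data cover anything from a level 3 times lower to one moderately higher. For Grin2b the difference was -0.59 (SE 0.68, interval -2.0 to 0.81; limma adjusted p = 0.992). For Grin2d it was -0.77 (SE 0.66, interval -2.14 to 0.60; limma adjusted p = 0.992). These 3 genes were lower in knockout in all alternative fits that held them, at -0.73 to -0.17 for Grin1, -0.82 to -0.22 for Grin2b and -1.20 to -0.21 for Grin2d, and passed the threshold in none.

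Grin2a and Grin3a had differences near 0 and the widest intervals. The log2 difference was -0.05 for Grin2a (SE 0.86, 95% interval -1.83 to 1.74; limma adjusted p = 0.998). For Grin3a it was 0.04 (SE 0.87, interval -1.78 to 1.87; limma adjusted p = 0.998). Single libraries set their sign: Grin2a was at -0.65 without knockout 4 and at 0.49 without knockout 5, and Grin3a at -0.50 without knockout 1 and at 0.70 without knockout 5. Without the 3 libraries that stood apart Grin3a was at 0.85 (SE 0.75; limma adjusted p = 0.988), the largest of its alternatives, and with a term for them it was at 0.50. A level 2-fold lower in knockout lies within the intervals of all 5 genes, and one 2-fold higher within those of Grin2a and Grin3a.

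By direction alone, 4 of the 5 tested subunit genes were lower in knockout, and so were 67.4% of all tested genes; with median centring the count was 3 of 5, with Grin2a at 0.33 and Grin3a at 0.42, against 46.1% of all tested genes. After quantile normalization 3 of the 5 were lower too, with Grin2a at 0.22 and Grin3a at 0.49, against 52.3% of all tested genes. The median difference of the 5 genes was -0.54, and that of all tested genes was -0.31, which median centring moved to 0.07. Relative to that median of -0.31, the differences were -0.24 for Grin1, -0.29 for Grin2b, -0.47 for Grin2d, 0.26 for Grin2a and 0.35 for Grin3a. The share of members lower is thus to be read against a majority of all genes that were lower.

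**Figure D4:**
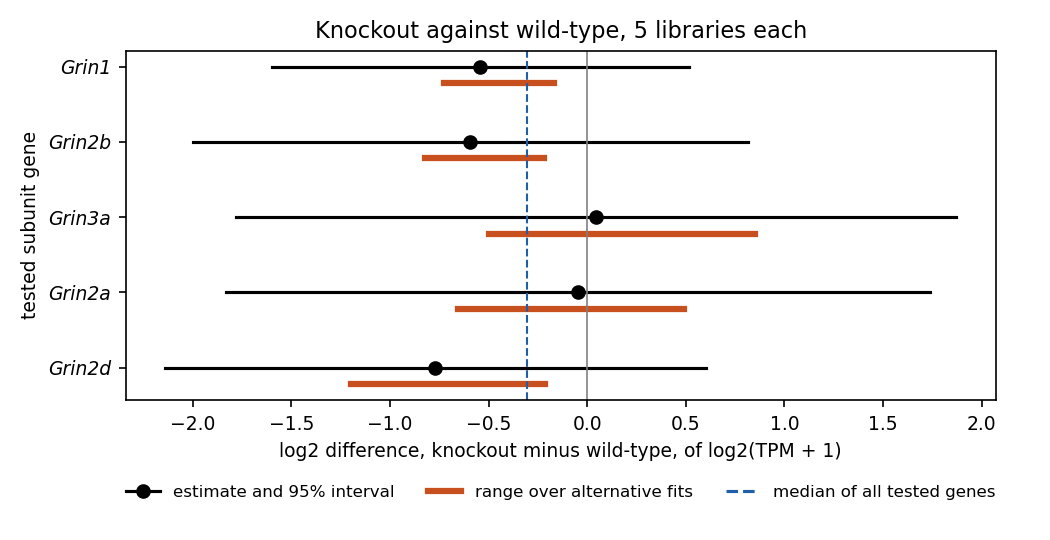
Log2 difference (knockout minus wild-type, log2(TPM + 1)) with its 95% interval for the 5 tested subunit genes, the range over alternative fits in orange, and the median of all tested genes (-0.31) as a dashed line. All 5 intervals include 0 and the dashed line.

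Genes that work with the receptor were read from the same fit in 6 lists. Of 90 tested genes, 69 (76.7%) were lower and 21 higher in knockout, beside 67.4% lower among all tested genes. After median centring that background share was 46.1%, and the centred counts of the lists below are to be set beside it. None was called over all genes, and 2 (2.22%) had an unadjusted p under 0.05, beside 3.31% of all tested genes, so the share with a small p was not above the background. Scaffolds of the postsynaptic density, which anchor the receptor, had 16 of 21 members lower and a median log2 difference of -0.67, or 14 of 21 after median centring. Dlg2, which encodes the scaffold PSD-93, was the most abundant, at 421 ± 254 TPM for wild-type against 654 ± 669 TPM for knockout (SD, n = 5 each). Knockout 3, at 1808 TPM, carried that knockout mean, which was 366 TPM without it, below wild-type. Shank3, which links the receptor complex to the cytoskeleton, had 33.4, 33.2, 19.9, 70.3 and 11.5 TPM (wild-type 1 to 5) and 14.9, 18.4, 3.97, 14.4 and 7.46 TPM (knockout 1 to 5). Only wild-type 5 fell within the knockout range, and the difference was -1.36 (SE 0.71; limma adjusted p = 0.992). Dlgap4, a further scaffold, had a difference of -1.05 (SE 0.61; limma adjusted p = 0.992). In the other direction, the scaffold gene Lin7b had one of 1.52 (SE 1.0; limma adjusted p = 0.992). It was listed at 0 in wild-type 3 and 4, had 3.88 to 35.9 TPM in the other wild-type libraries and 11.6 to 28.9 TPM in knockout.

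Kinases and phosphatases of the receptor complex had 15 of 19 members lower (median -0.31), but 9 of 19 after median centring. Camk2d, a subunit of the calcium- and calmodulin-dependent kinase CaMKII, was the most abundant, at 245 ± 177 TPM for wild-type against 173 ± 137 TPM for knockout. Prkaca, a catalytic subunit of protein kinase A, had a log2 difference of -1.10 (SE 0.71), or -1.55 without knockout 1, and Src, a tyrosine kinase that enhances NMDA currents, one of 1.26 (SE 0.88), with 518 TPM in knockout 3 and a difference of 0.50 without that library. Receptor partners and trafficking genes had 11 of 14 members lower (median -0.39), and 7 of 14 after median centring. The endocytic gene Dnm1 (223 ± 124 and 122 ± 29.5 TPM) had a difference of -0.73 (SE 0.55), or -0.35 after median centring. Ap2m1, also endocytic and the most abundant of the list (442 ± 121 and 441 ± 258 TPM), was at -0.15 (SE 0.53). After median centring Ap2m1 was at 0.22. The adhesion gene Lrfn1 had a difference of 1.33 (SE 0.86). Genes of calcium-activated signalling had 11 of 14 members lower (median -0.41), and 9 of 14 after median centring. The CREB coactivator gene Crtc1 spanned 32.6 to 273 TPM for wild-type against 9.77 to 53.0 TPM for knockout (-1.50, SE 0.72, and -0.97 without wild-type 4, which had 273 TPM). The calmodulin gene Calm3 had a difference of 1.01 (SE 0.72), and 0.56 without knockout 3. For the genes of this paragraph the limma adjusted p was 0.992.

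Genes for co-agonist and glutamate supply and clearance had 7 of 12 members lower (median -0.18), and 5 of 12 after median centring. Slc6a9, which encodes the glycine transporter GlyT1 that clears the co-agonist glycine, was the only list gene whose genotypes did not overlap. Wild-type libraries 1 to 5 had 2.03, 4.60, 10, 19.2 and 6.52 TPM, and knockout libraries 1 to 5 had 1.60, 0.671, 0.985, 1.36 and 0 TPM. The log2 difference was -2.09 (SE 0.69; limma adjusted p = 0.992), so it was not called over all genes, and it was 1 of the 2 list genes with an unadjusted p under 0.05. Of all tested genes 0.502% had genotypes without overlap. Slc6a9 is also a marker of glycine-releasing amacrine cells and glia. The 9 amacrine markers, Slc6a9 among them, summed to between 873 and 1273 TPM for wild-type and between 540 and 1931 TPM for knockout, and their part in the Slc6a9 values was not tested. Slc7a10, a transporter of the co-agonist D-serine, stood at 7.57 ± 5.58 TPM for wild-type against 2.63 ± 1.44 TPM for knockout (-0.997, SE 0.72; limma adjusted p = 0.992).

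The other ionotropic glutamate receptor genes had 9 of 10 members lower (median -0.49), and 7 of 10 after median centring. Grik5, a kainate receptor subunit gene, had 148, 112, 47.9, 194 and 284 TPM (wild-type 1 to 5) and 47.1, 47.1, 47.2, 88.2 and 34.8 TPM (knockout 1 to 5). Wild-type 3 overlapped with the knockout range, and the difference was -1.40 (SE 0.60; limma adjusted p = 0.992). Gria2, whose AMPA receptor subunit limits calcium entry, was the one member that was higher, at 0.78 (SE 0.83), with 473 TPM in knockout 5 and 12.3 to 207 TPM elsewhere, and was at 0.24 without that library.

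Genes with profiles most like those of the subunit genes were found by the root-mean-square difference between log2(TPM + 1) profiles over the 10 libraries, each centred on its own mean, among 10644 other tested genes. For Grin1 the nearest were Arfgap1 (0.259), Parp1 (0.297) and Pask (0.345), against a median of 1.18 over all candidates and 0.496 for a flat profile at the mean of Grin1. For Grin2b the nearest included Srrm1 (0.220) and Hnrnph1 (0.232), against 1.04 and 0.709 for a flat profile. For Grin2a they were Fhod3 (0.469), Trim68 (0.495) and Sarm1 (0.506), against 1.51 and 1.23 for a flat profile, and for Grin3a Rab31 (0.320), Cdk19 (0.373) and Rnd3 (0.410), against 1.4 and 1.3 for a flat profile. For Grin2d they were Kcnk12 (0.464), Stip1 (0.484) and Ddx23 (0.509), against 1.37 and 0.831 for a flat profile. These are the closest of a large number of genes over 10 libraries, and the list describes these libraries only.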

How the data were processed

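The deposited table holds log10(TPM + 1) values made by the authors for 10 libraries, 1 column each. Base and offset were read from the values, since back-transformed columns each sum to 1000000 TPM. The submitters' processing notes name TopHat2 2.0.10, Cufflinks and mm10; no source used here names the annotation, the counting step, filters or strand. TPM keeps no depth, so depth is unknown and no count-based interval was computed. Per the labels' protocols, cDNA from the sorted cells was amplified first, which adds variation between libraries. The 25 entries with a 5-digit number as symbol (0.0438% to 0.198% of TPM) were left out, and 240 repeated symbols were summed. Differences were tested with limma 3.58.1 (R 4.3.3) on log2(TPM + 1), genotype as the only term, a trended prior variance, and Benjamini-Hochberg adjustment over the 11745 genes reaching 1 TPM in 5 or more libraries. A fold change on this scale understates low genes. The fit was tested on simulated data. Alternatives covered pseudocount, filter, scaling, a replicate block, library weights, values listed at 0, and libraries left out. Members and lists were chosen with earlier results of these data known. Named genes are all members and, per list, those with the smallest p in each direction and the highest mean TPM, of which some are described. For each tested member, the 3 nearest profiles are named, leaving out predicted genes and small RNAs; 1 of them is not reported here. Symbols were matched to RefSeq GRCm38.p6 and GENCODE M21, the same build as mm10.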

Additional observations from a re-analysis of the deposited data

Results flagged for a closer look

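In 4 of 22 sets of 5 libraries checked (the levels of the 7 genes and the shares of the 4 GluN2 genes, per genotype), 1 library lay far from the others by Dixon's criterion at 95% (gap over range above 0.71). For normally distributed values, chance gives this in about 1 set in 20. TPM and shares need not be distributed so, and the sets share libraries, so 4 of 22 cannot be judged against that rate. Grin2a was at 34.2 TPM in knockout 4, with the next knockout library at 8.34 TPM, and in the same library Grin2b held 27.0% of the GluN2 transcripts, with the next lowest at 64.6%. Grin3b was at 7.13 TPM in wild-type 1, with the next wild-type library at 0.738 TPM, and at 10.9 TPM in knockout 2, with the next knockout library at 2.14 TPM.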

How the results depend on the processing

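Grin1 and Grin2b kept a negative difference in all 21 alternative fits, and Grin2d in the 20 that held it (it did not pass the stricter filter of 5 TPM); no subunit gene passed the threshold in any. Grin2a changed sign with a pseudocount of 10 (0.11), median centring (0.33) and quantile normalization (0.22), and ranged from -0.65 to 0.49 with each library left out. Grin3a changed sign with a pseudocount of 0.1 (-0.051), ranged from -0.50 to 0.70 with each library left out, and was highest, at 0.85, without the 3 libraries that stand apart (0.50 with a term for them). Beyond the construction of these fits, the cause was not tested. The number of tested subunit genes lower in knockout was 3 to 5 with each library left out. The number of genes called over the whole table was 0, and was 1 with the stricter filter, 3 with library weights, 1 with values listed at 0 taken as missing, and 0 to 1 with each library left out (1 without wild-type 3, 4 or 5); none of them was a subunit gene. With the replicate number as a block 0 genes were called (829 at an unadjusted p under 0.05, against 389 without it), and the adjusted p of the subunit genes was 0.739 to 0.989. Samples with the same number correlated at -0.03 to 0.36 in their deviations, over 0.1 in 3 of 5 pairs, and 2 of 5 wild-type samples correlated best with their own number, so the numbers were not taken as pairs. All shares of the GluN2 genes moved by less than 1 SD, but that of Grin2d in knockout went from 8.06% to 4.31% without knockout 5 and to 5.13% of TPM summed over libraries. With a median SE of 0.775 over all tested genes, changes of 2-fold were mostly below what these libraries can show.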
